A study of Mus musculus with 16 samples.

Results

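Nitric oxide and arginine metabolism was followed through 8 genes in intervertebral discs of mice: the nitric oxide synthases Nos2 and Nos3, the cofactor enzyme Gch1, the arginine transporter Slc7a2, the arginine-making enzymes Ass1 and Asl, and the arginases Arg1 and Arg2. The genes were chosen by name from the 49315 genes of the deposited table. They were singled out because Nos2 had the largest injury difference of all genes in the mutant mice, and the question was whether that difference came with a supply of substrate and cofactor. The injured-against-intact values of the 8 genes in mutants are therefore a description, given without p-values. All 8 genes reached the minimum level for testing, 1 TPM in at least 3 libraries, which 24188 genes met.

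The groups were 3 wild-type mice with intact discs, 4 wild-type mice with injured discs, 4 Adam8EQ mice with intact discs and 5 Adam8EQ mice with injured discs. Each library came from 1 mouse and pooled 4 tail discs, so the spread within a group is between mice. The gene Adam8 codes for a metalloprotease held in the cell membrane. What the EQ allele changes is not described in the labels, and the TPM values carry no sequence in which to check it. DBA, an inbred mouse strain, is named in the title of the series as what the mutants were compared with. For wild-type libraries the label for genotype reads only "type", and their titles gave it in full. Age, the kind of injury and the time after it are not given in the sources used here. Levels are TPM, the authors' normalised transcript abundance, which are scaled by gene length and can be compared between genes. Differences are between group means of log2(TPM + 1), given with their standard error (SE) from limma. The SE rests on a spread per gene that all groups share, and not on the groups compared alone. Adding 1 understates the difference of genes with low TPM.

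Nitric oxide synthases turn arginine and oxygen into nitric oxide and citrulline. The inducible enzyme, encoded by Nos2, is made by macrophages and also by chondrocytes and disc cells exposed to inflammatory cytokines, and once made it does not depend on a rise in calcium. It needs tetrahydrobiopterin, whose synthesis starts with the enzyme encoded by Gch1. Arginine enters cells through cationic amino acid transporters such as the product of Slc7a2, and citrulline is turned back into arginine by the products of Ass1 and Asl. Arginases compete for the same arginine and make ornithine, the source of polyamines and proline.

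On GRCm38, Nos2 (ENSMUSG00000020826) spans chr11:78920787-78960254 on the plus strand with 29 merged exons. Nos3 (ENSMUSG00000028978) lies at chr5:24364810-24384474, plus, and its exons overlap those of Atg9b and Gm15587 on the other strand. Gch1 (ENSMUSG00000037580) lies at chr14:47153895-47189413, minus. Slc7a2 (ENSMUSG00000031596) lies at chr8:40862396-40922308, plus, overlapped by Gm26584 on the minus strand. Ass1 (ENSMUSG00000076441) lies at chr2:31470207-31520672, plus, and Asl (ENSMUSG00000025533) at chr5:130011258-130029247, minus. Arg1 (ENSMUSG00000019987) lies at chr10:24915221-24927484, minus. Arg2 (ENSMUSG00000021125) lies at chr12:79130777-79156301, plus, overlapped by Gm48780 and Vti1b on the minus strand. Whether the counting used strand is not given in the sources used here, so reads of Nos3, Slc7a2 and Arg2 cannot be told apart from those of their antisense neighbours.

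The 250 bases before the start of Gch1 and Ass1 are shown because these were the 2 of the 8 genes that matched the RefSeq promoter table on GRCm38.p6, and both serve the supply of Nos2. The stretches lie at chr14:47189414-47189663 on the minus strand for Gch1 and chr2:31470020-31470269 on the plus strand for Ass1. Each runs 5′ to 3′ and ends at the base before the RefSeq start. The gene start of Ass1 given above, 31470207, lies inside its stretch, so the 2 annotations differ in where Ass1 begins. Capitals mark matches to the motifs searched.
Gch1: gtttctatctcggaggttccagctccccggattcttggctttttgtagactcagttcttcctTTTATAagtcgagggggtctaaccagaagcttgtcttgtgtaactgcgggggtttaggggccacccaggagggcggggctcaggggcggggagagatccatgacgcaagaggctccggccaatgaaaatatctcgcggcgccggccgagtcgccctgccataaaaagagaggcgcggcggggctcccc
Ass1: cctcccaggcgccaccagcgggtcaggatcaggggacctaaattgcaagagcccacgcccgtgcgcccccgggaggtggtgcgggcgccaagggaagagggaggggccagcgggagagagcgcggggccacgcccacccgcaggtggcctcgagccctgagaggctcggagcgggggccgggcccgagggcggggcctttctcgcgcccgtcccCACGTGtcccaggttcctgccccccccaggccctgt

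Both strands were searched for kappaB written as GGGANTTTC and GGGANNTTC, the gamma-activated site TTCNNNGAA, the interferon-stimulated response GAAANNGAA, C/EBP TTGCNNAA, the hypoxia response ACGTG and TATA written as TATAAA. In Ass1, ACGTG matched on both strands, in overlapping positions -36 to -32 and -35 to -31 from the RefSeq start, which is within the gene by the other annotation. In Gch1, TATAAA matched on the minus strand at -188 to -183. Among 32851 promoters of the table, ACGTG was found in 16.57% and TATAAA in 12.37%. The other letters, which were not in these 2 windows, were found in 0.94%, 3.23%, 7.02%, 7.13% and 9.56% in the order given. G and C made up 75.6% of the Ass1 stretch and 59.2% of the Gch1 stretch, beside a median of 52.4% over all promoters. A match is a description of the letters and not a measured site.

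Depth, read off the steps in the TPM, came to between 10195540 and 24832996 reads a library. Any pair of libraries correlated at 0.825 to 0.952 in log2(TPM + 1), and 0 pairs were identical. Summed TPM of 5 cartilage and disc markers (Acan, Col2a1, Sox9, Comp and Cnmd) was 3963 to 18555, so the labelled tissue was present in every library. Injured mutant mouse 2 (3963) and injured wild-type mouse 3 (5231) had the lowest sums. The next lowest was 9002 in injured mutant mouse 1. The summed TPM of 8 macrophage markers was 153 to 216 in the 7 intact libraries, 251, 384, 3549 and 2351 in injured wild-type mice 1 to 4, and 2016, 7762, 1263, 2364 and 786 in injured mutants 1 to 5. Injured wild-type mice 1 and 2 therefore lay near the intact libraries in these markers and mice 3 and 4 did not. In bulk tissue, fewer cells of a type and less RNA per cell cannot be told apart.

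Nos2 was low in every intact disc and reached 303 TPM or more in 7 of the 9 injured ones. In intact wild-type discs Nos2 was at 4.16, 3.49 and 1.93 TPM, and in injured wild-type discs at 6.60, 14.02, 466 and 303 TPM. All 4 injured wild-type mice were above all 3 intact ones, but they spread over a wide range, with mice 3 and 4 far above mice 1 and 2. The numbers in the library names are consecutive within mice 1 and 2 and within mice 3 and 4, with a gap between the pairs. Intact wild-type libraries have a lower run of numbers. What the numbers stand for is not given in the labels, so the split between the pairs cannot be told apart from them. The difference was 3.96 ± 1.14 (SE, 4 against 3 mice) and did not pass the test (limma, adjusted p = 0.146). Without injured wild-type mouse 1 it was 4.98 and passed (limma, adjusted p = 0.0343), and over all alternatives the adjusted p ran from 0.0343 to 0.377. Leaving out that mouse took the number of all genes called from 28 to 463. With every mouse kept, 0.116% of all genes tested in wild type passed, and 0 of the 8 genes did (limma, 4155 of 24188 genes at an unadjusted p under 0.05).

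In the mutants, Nos2 was at 1.65, 5.35, 3.75 and 0.63 TPM in intact discs and at 636, 523, 1516, 332 and 398 TPM in injured discs. Every injured mutant was above every intact mouse of either genotype, and mouse 3 stood highest. The difference was 7.43 ± 0.998 (SE, 5 against 4 mice), first in rank among 24188 genes. Leaving out each mouse in turn gave 7.08 to 7.73. The library names of the mutants begin with A8 (injured mice 1 and 2, intact mice 1 and 2) or with M (the rest). Within A8 the Nos2 difference was 7.14 and within M it was 7.72.

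**Figure D1:**
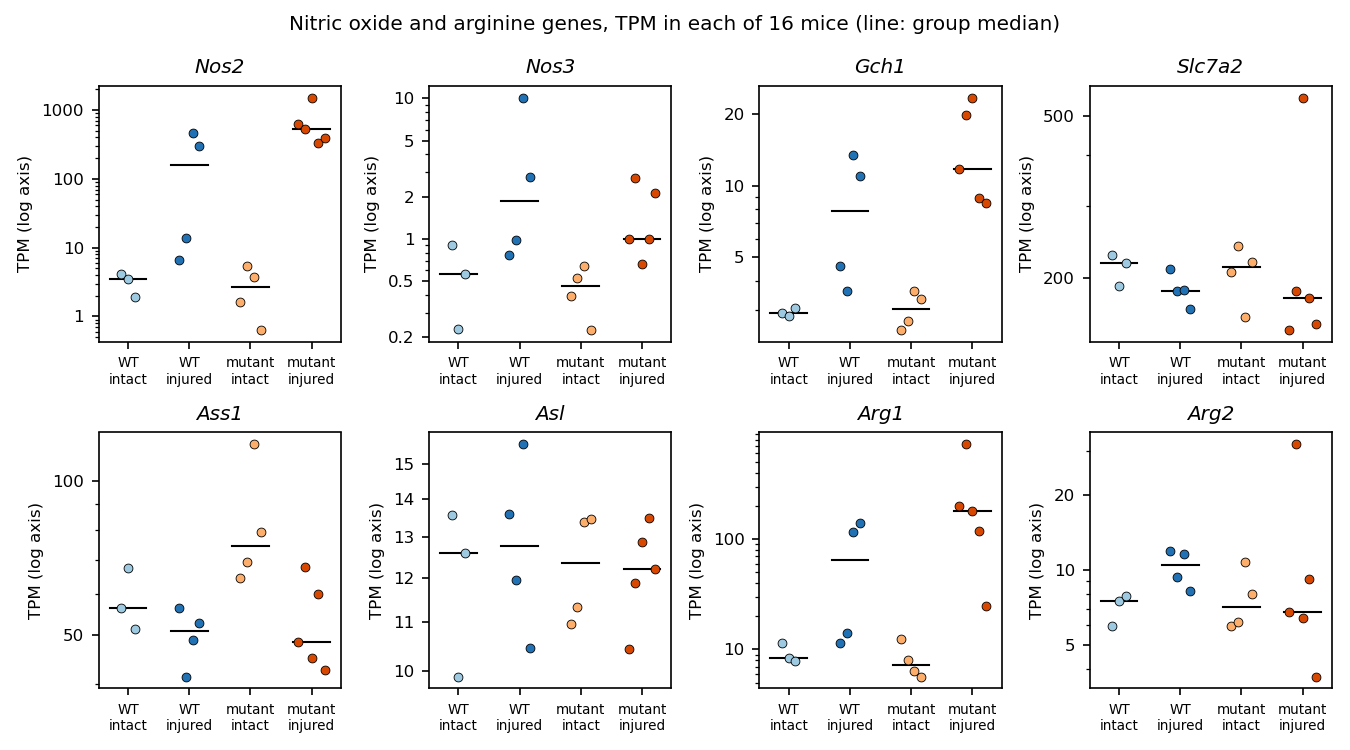
TPM of the 8 genes (log axis) in each of 16 mice by group, 1 point per mouse in number order, with a line at the group median. Nos2, Gch1 and Arg1 are higher in every injured mutant than in every intact mutant, while Asl lies between 9.89 and 15.6 TPM throughout.

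Nos3 encodes the endothelial synthase. Nos3 was at 0.904, 0.228 and 0.563 TPM in intact wild-type discs and at 0.775, 0.986, 10.1 and 2.77 TPM in injured ones. The groups overlapped, with mouse 3 well above the others, and the difference of 1.18 ± 0.50 did not pass the test (limma, adjusted p = 0.257). In mutants Nos3 was at 0.225 to 0.644 TPM in intact and 0.667 to 2.71 TPM in injured discs, a difference of 0.73 ± 0.44 with no overlap. These levels rest on few reads: 3 to 11 implied reads per intact library and 9 to 139 per injured library. Injured wild-type mouse 3, where Nos3 was highest, also had the highest sum of 6 endothelial markers (183 TPM, beside 2.71 to 63.7 in the other 15 libraries). The part of endothelial RNA in the Nos3 value was not tested.

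Nos1, the neuronal synthase, was the main synthase transcript of intact discs. Nos1 was at 27.7 to 65.8 TPM in intact wild-type discs and 26.5 to 89.8 TPM in intact mutant discs. It made up 91.7% to 94.7% and 81.8% to 98.2% of the summed TPM of the 3 synthase genes. In injured mutants Nos2 instead made up 95.2%, 97.9%, 97.9%, 88.3% and 91.1% of that sum in mice 1 to 5. In injured wild-type discs the Nos2 share was 13.2%, 29.1%, 94.2% and 91.1%, so Nos1 was still the larger part in mice 1 and 2. Nos1 itself differed by -0.70 in wild type (limma, adjusted p = 0.488) and by -0.63 in mutants (adjusted p = 0.310), and neither difference passed. Nos1 exons are overlapped by Gm26995 on the minus strand.

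**Figure D2:**
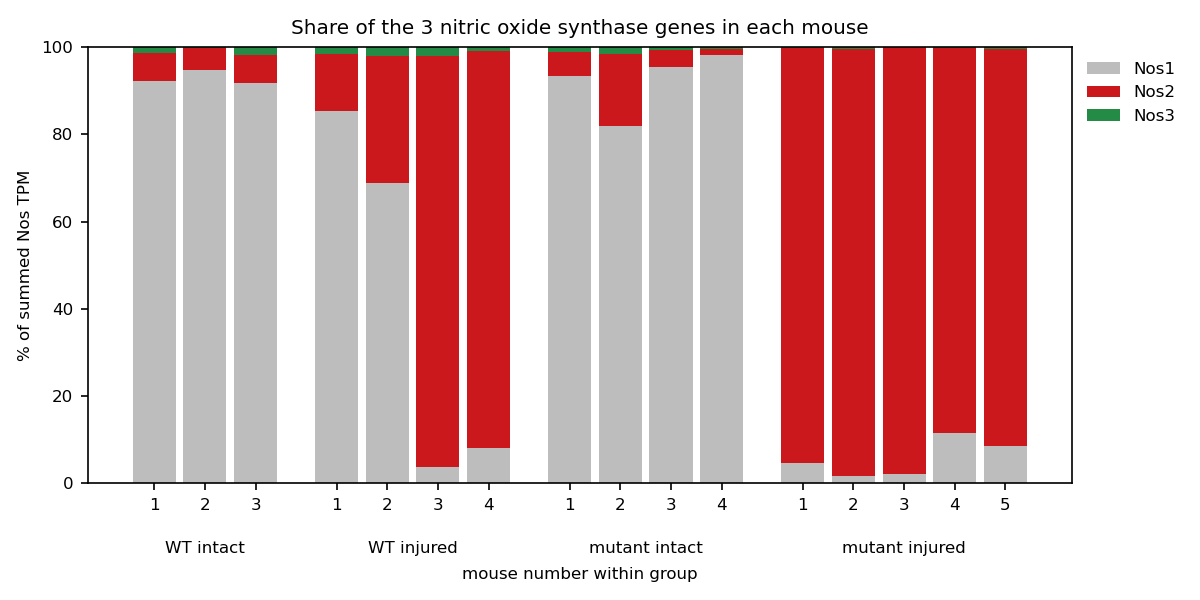
Share of Nos1, Nos2 and Nos3 in the summed TPM of the 3 genes (%, stacked bars) in each mouse, by group. Nos1 takes 81.8% or more in all 7 intact discs, and Nos2 takes 88.3% or more in all 5 injured mutants and in injured wild-type mice 3 and 4.

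Among 7 partners of the synthases, 1 rose and 1 fell with injury in mutants, where 13.1% of all tested genes were called higher and 17.7% lower. Nos1ap, an adaptor of the neuronal synthase, fell by 0.87 ± 0.24 (limma, adjusted p = 0.0131), from 3.85 to 6.14 TPM down to 1.44 to 3.81 TPM.

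Gch1, the first and rate-limiting enzyme of tetrahydrobiopterin synthesis, was higher in every injured mouse than in every intact mouse of the same genotype. Gch1 was at 2.94, 2.83 and 3.08 TPM in intact wild-type discs and at 4.61, 3.60, 13.5 and 10.98 TPM in injured ones. The difference of 1.05 ± 0.40 did not pass the test (limma, adjusted p = 0.220). In mutants Gch1 was at 2.48, 2.72, 3.62 and 3.35 TPM in intact and at 11.8, 19.7, 23.4, 8.90 and 8.47 TPM in injured discs, a difference of 1.84 ± 0.35. Mouse 3 was highest for Gch1 and for Nos2 alike. The median Nos2 to Gch1 ratio of TPM was 0.851 in intact mutants and 47.0 in injured mutants.

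The other 7 tetrahydrobiopterin genes did not share the direction of Gch1 in mutants, where 0 rose and 3 fell. Of all tested genes 13.1% rose and 17.7% fell. Qdpr, which encodes the dihydropteridine reductase that recycles the cofactor, fell by 0.73 ± 0.15 (limma, adjusted p = 0.00303), from 31.9 to 41.7 TPM in intact to 17.9 to 28.8 TPM in injured mutants. Pcbd1 and Pcbd2, the dehydratases of the same recycling route, fell by 1.48 (adjusted p = 0.0403) and 0.74 (adjusted p = 0.0230), with overlapping groups. Pts and Spr, the enzymes that follow Gch1 in synthesis, differed by -0.41 (limma, adjusted p = 0.0837) and 0.12 (adjusted p = 0.383). Gchfr, the feedback regulator of the Gch1 enzyme, was at 1.44 to 5.64 TPM in intact and 0.47 to 6.46 TPM in injured mutants. The median difference of the 7 genes was -0.41 in mutants and -0.42 in wild type, beside -0.08 and 0.01 over all tested genes, and 0 of 7 passed in wild type.

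Slc7a2, the cationic amino acid transporter 2, was already abundant in intact discs, and 8 of the 9 injured discs lay at 210 TPM or below. Slc7a2 was at 227, 191 and 218 TPM in intact wild-type discs and at 210, 186, 186 and 167 TPM in injured ones. The groups overlapped and the difference was -0.18 ± 0.33 (limma, adjusted p = 0.811). In mutants it was at 207, 240, 160 and 219 TPM in intact and at 149, 185, 554, 178 and 154 TPM in injured discs. Injured mutant mouse 3 stood alone, and the other 4 lay between 149 and 185 TPM. The mutant difference was 0.05 ± 0.29, and -0.30 without mouse 3, which was also the mouse with the most Nos2.

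Of 5 other arginine transport genes, 3 rose and 0 fell with injury in mutants, beside 13.1% and 17.7% of all tested genes. Slc7a6, a light chain that exchanges cationic and neutral amino acids, rose by 0.65 ± 0.14 (limma, adjusted p = 0.00353), from 23.7 to 29.6 TPM in intact to 33.7 to 52.0 TPM in injured mutants. Slc7a1, the cationic amino acid transporter 1, rose by 0.49 (adjusted p = 0.0101). Slc3a2, the heavy chain that light chains need to reach the membrane, rose by 0.47 (adjusted p = 0.00581). Slc7a2 was nonetheless the more abundant of the cationic transporters, at 3.75 to 13.2 times the TPM of Slc7a1 in injured mutants and 5.17 to 10.6 times in intact mutants. In wild type the 5 genes differed by 0.22 to 0.99 and 0 passed.

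Ass1, which joins citrulline and aspartate on the way back to arginine, was not higher in injured discs of either genotype. Ass1 was at 56.4, 67.4 and 51.4 TPM in intact wild-type discs and at 56.5, 41.4, 48.9 and 52.8 TPM in injured ones, a difference of -0.22 ± 0.20 (limma, adjusted p = 0.576). In mutants it was at 64.5, 69.4, 118 and 79.5 TPM in intact and at 48.4, 67.9, 45.1, 60.0 and 42.6 TPM in injured discs. These groups overlapped through injured mouse 2 alone, and the difference was -0.62 ± 0.18. It was -0.22 within the A8 libraries and -0.98 within the M libraries, and -0.44 without intact mutant mouse 3, which had the highest level.

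Asl, the lyase that releases arginine, hardly varied. Asl lay between 9.89 and 15.6 TPM in wild type and between 10.4 and 13.5 TPM in mutants. The differences were 0.09 ± 0.15 in wild type (limma, adjusted p = 0.784) and -0.01 ± 0.14 in mutants. The median Nos2 to Ass1 ratio of TPM was 0.0287 in intact mutants and 9.35 in injured mutants. In injured wild-type mice 1 to 4 that ratio was 0.117, 0.338, 9.52 and 5.74. Of the 6 other urea cycle and arginine origin genes, Cps1, Otc and Nags were below the minimum level, and 0 of the other 3 passed in either genotype.

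**Figure D3:**
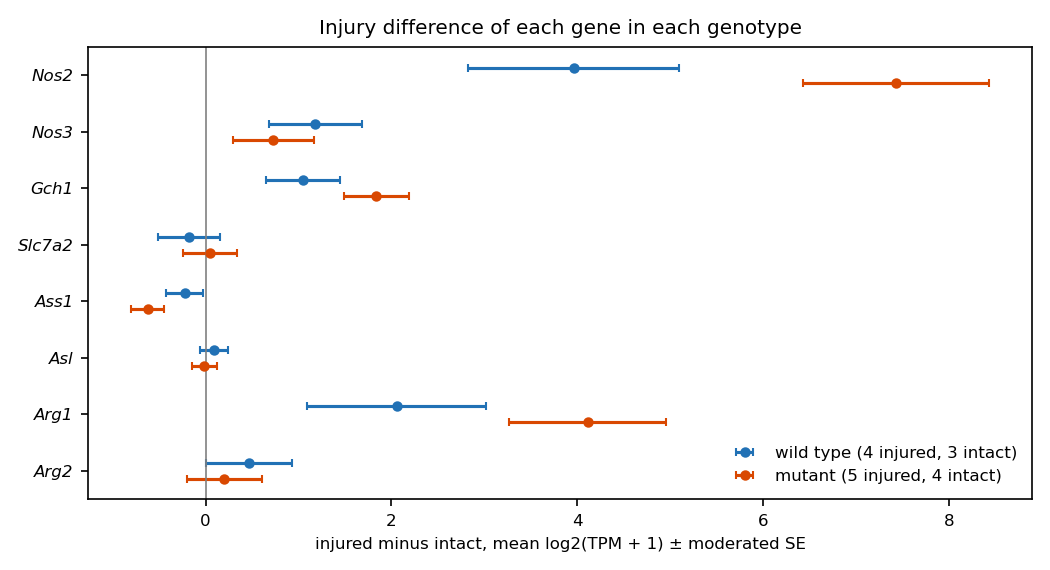
Injured minus intact difference of mean log2(TPM + 1) for the 8 genes in wild-type (4 against 3) and mutant (5 against 4) mice, with bars for ± 1 limma standard error. Nos2 lies at 3.96 and 7.43, Arg1 at 2.06 and 4.11 and Gch1 at 1.05 and 1.84, and Slc7a2 and Asl lie near 0 in both genotypes.

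Arg1, the cytosolic arginase, had the largest injury difference of the 8 genes after Nos2 in both genotypes. Arg1 was at 11.5, 8.30 and 7.88 TPM in intact wild-type discs and at 11.49, 14.05, 117 and 141 TPM in injured ones. Mouse 1 lay within the intact range, and the difference of 2.06 ± 0.96 did not pass the test (limma, adjusted p = 0.291). In mutants Arg1 was at 12.3, 8.10, 6.41 and 5.67 TPM in intact and at 198, 727, 182, 119 and 24.6 TPM in injured discs. All injured mutants were above all intact ones, over a range from 24.6 TPM in mouse 5 to 727 TPM in mouse 2, and the difference was 4.11 ± 0.84. Without mouse 2 it was 3.55 and without mouse 5 it was 4.75.

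Arg2, the mitochondrial arginase, did not follow Arg1. Arg2 was at 5.94, 7.48 and 7.88 TPM in intact wild-type discs and at 11.9, 9.33, 11.6 and 8.22 TPM in injured ones. All injured wild-type mice were above the intact ones, by a difference of 0.47 ± 0.46 that did not pass the test (limma, adjusted p = 0.611). The shared spread behind this SE takes in the injured mutants, whose standard deviation in log2(TPM + 1) was 1.05. In intact and injured wild-type mice the standard deviation was 0.19 and 0.23. In mutants Arg2 was at 5.95, 6.17, 10.8 and 8.03 TPM in intact and at 6.77, 31.9, 6.43, 9.17 and 3.73 TPM in injured discs. The mutant difference of 0.20 ± 0.40 rested on injured mouse 2 and was -0.23 without it. Arg1 made up 37.3% to 67.5% of the summed arginase TPM in intact mutants and 86.8% to 96.7% in injured mutants.

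The balance of Nos2 and Arg1 within a disc varied between mice. The Nos2 to Arg1 ratio of TPM lay at 0.660 or below in all 7 intact discs. In injured wild-type mice 1 to 4 it was 0.574, 0.998, 3.99 and 2.15. In injured mutants 1 to 5 it was 3.21, 0.720, 8.34, 2.79 and 16.2. Nos2 thus exceeded Arg1 in level in 4 of the 5 injured mutants, and the exception was mouse 2, which had the most Arg1.

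Arg1 was highest where macrophage markers were highest, in injured mutant mouse 2 (7762 TPM summed), and lowest among injured mutants where they were lowest, in mouse 5 (786 TPM). Between these the order differed: mouse 4 had 2364 TPM summed with Arg1 at 119 TPM, and mouse 3 had 1263 TPM with Arg1 at 182 TPM. Nos2 was highest in mouse 3, where the marker sum was 1263 TPM. Lyz2 had by far the highest mean of these markers in injured mutants (1912 TPM, with Cd68 next at 355 TPM). Summed neutrophil markers were likewise highest among injured mutants in mouse 2 (955 TPM) and lowest in mouse 5 (14.7 TPM). Of 7 macrophage markers tested, 6 rose in injured mutants, among them Lyz2 (5.63), Adgre1 (3.94) and Cd68 (2.30), and Csf1r differed by 0.44 without passing. Itgam is listed under 2 identifiers and was left out of the test. Of 6 neutrophil markers tested, 4 rose (S100a8, S100a9, Csf3r and Cxcr2). Elane differed by -0.29 and Ngp by 0.36, and neither passed. Of all tested genes 13.1% rose and 17.7% fell in mutants. Summed neutrophil markers were 0.894 to 6.60 TPM in intact discs, 2.91 to 175 TPM in injured wild-type and 14.7 to 955 TPM in injured mutant discs. Mpo was at 0.430 TPM or below and Ly6g at 1.56 TPM or below in every library. Of 4 notochordal markers tested, 3 fell in injured mutants, and their sum went from 2523 to 4162 TPM in intact to 31.4 to 2426 TPM in injured mutants. The part of these cells in the Nos2, Gch1 and Arg1 values was not tested.

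**Figure D4:**
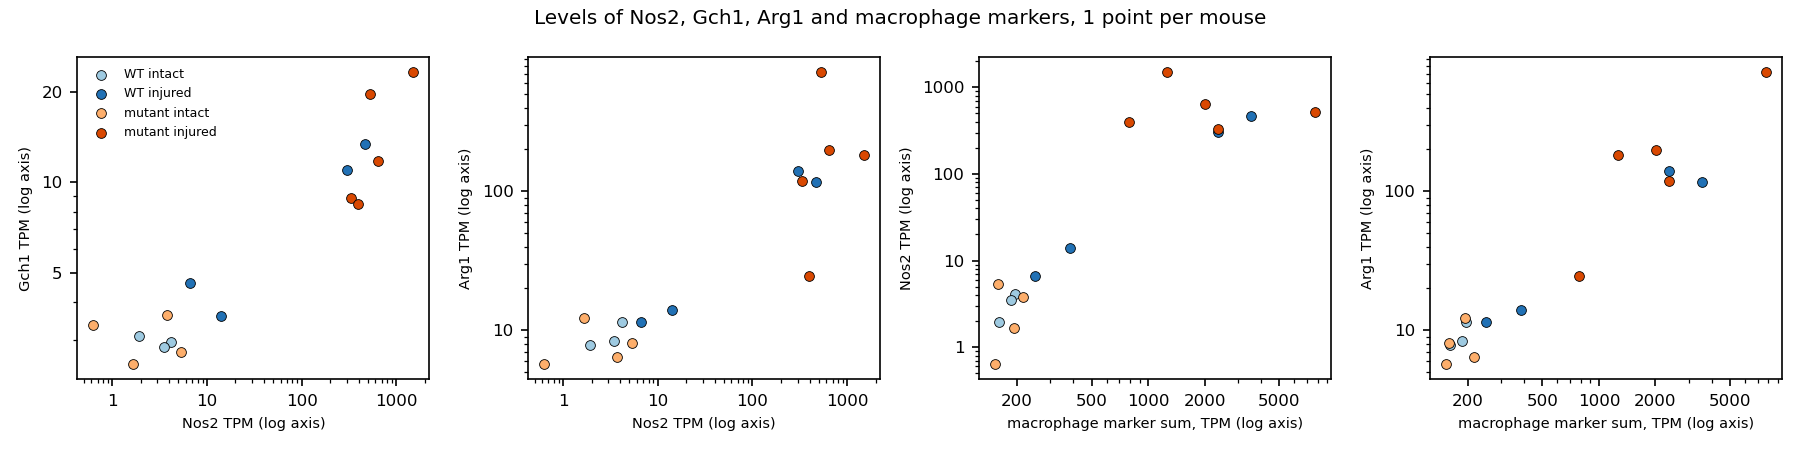
TPM of Gch1 and Arg1 against Nos2, and of Nos2 and Arg1 against the summed TPM of macrophage markers (all log axes), 1 point per mouse coloured by group. Injured mutant mouse 2 (523 TPM Nos2, 727 TPM Arg1) has the highest marker sum at 7762 TPM, and injured mutant mouse 3 (1516 TPM Nos2) lies at 1263 TPM.

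Downstream of arginase, 4 of 15 ornithine, polyamine and proline genes rose and 2 fell with injury in mutants, and 0 passed in wild type. In mutants 13.1% of all tested genes rose and 17.7% fell. Smox, spermine oxidase, rose by 1.59 ± 0.50 (limma, adjusted p = 0.0273), from 15.7 to 23.8 TPM in intact to 39.2 to 98.3 TPM in injured mutants. Sat1, the acetyltransferase that starts polyamine breakdown, rose by 1.43 ± 0.26 (adjusted p = 0.00172). Azin1, an inhibitor of the antizymes that restrain ornithine decarboxylase, rose by 1.14 (adjusted p = 0.000758). The remaining rise was Odc1, ornithine decarboxylase itself, at 0.74 (adjusted p = 0.00264), from 52.7 to 83.0 TPM up to 100 to 134 TPM.

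The falls in this group were Prodh, proline dehydrogenase, by 1.10 (limma, adjusted p = 0.00310) and the antizyme Oaz2 by 0.34 (adjusted p = 0.0252). The Oaz2 call was lost under median-of-ratios scaling. Oat, which turns ornithine towards proline, differed by 0.05, and Pycr1, which completes proline, by -0.05. Odc1 has related sequences elsewhere in the genome, and how the authors counted shared reads is not given in the sources used here.

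Among 6 tested genes listed under other uses of arginine and its derivatives, 2 rose and 1 fell in mutants. Of all tested genes 13.1% rose and 17.7% fell. Gatm, which takes arginine for creatine, was at 2.83, 1.15, 2.17 and 1.96 TPM in intact and at 31.2, 22.8, 10.3, 27.2 and 6.06 TPM in injured mutants. It rose by 2.58 ± 0.51 (limma, adjusted p = 0.00274). Gamt, the next enzyme towards creatine, fell by 1.43 ± 0.38 (adjusted p = 0.0114), from 14.6 to 22.7 TPM down to 2.54 to 13.8 TPM. Azin2, which encodes an antizyme inhibitor as Azin1 does and not an enzyme that uses arginine, rose by 0.51 (limma, adjusted p = 0.0193) with overlapping groups. Ddah1 and Ddah2, which clear methylated arginines that inhibit the synthases, differed by -0.14 and -0.32 and were not called.

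Of 6 tested genes for targets and removal of nitric oxide, 1 rose and 2 fell in mutants, beside 13.1% and 17.7% of all genes. Prkg1, the cyclic GMP-dependent kinase 1, was at 34.6 to 64.4 TPM in intact and 11.8 to 18.3 TPM in injured mutants and fell by 1.63 ± 0.23 (limma, adjusted p = 0.000483). Prkg2, the second kinase of that kind, rose by 0.84 (adjusted p = 0.0267), from 2.64 to 3.74 TPM up to 4.16 to 12.8 TPM. Gucy1a2, a subunit of the cyclase that nitric oxide activates, fell by 0.56 (adjusted p = 0.0205), from 1.07 to 1.28 TPM down to 0.32 to 0.61 TPM.

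Known regulators of Nos2 were led by cytokines and C/EBP beta: 6 of 10 tested rose and 1 fell in mutants. Over all tested genes 13.1% rose and 17.7% fell. Il1b, which encodes interleukin 1 beta, was at 2.55, 1.81, 1.24 and 2.60 TPM in intact and at 24.8, 311, 19.7, 32.5 and 2.96 TPM in injured mutants, and rose by 3.30 ± 0.98 (limma, adjusted p = 0.0202). Mouse 5 had the least Il1b of the injured mutants while its Nos2 was at 398 TPM. Tnf rose by 2.84 ± 0.68 (adjusted p = 0.00693) and Cebpb by 2.32 ± 0.48 (adjusted p = 0.00320). Injured mutant mouse 2, with the highest macrophage and neutrophil sums, was highest for Il1b and Cebpb and, at 44.0 TPM, for Tnf. The other rises were Ifngr2 (0.96), Hif1a (0.65) and Nfkb1 (0.43).

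Irf1, an interferon-induced transcription factor, fell by 0.64 ± 0.18 (limma, adjusted p = 0.0145), from 14.4 to 18.9 TPM in intact to 7.12 to 14.3 TPM in injured mutants. Ifng was listed at 0 in 15 of the 16 libraries and at 0.24 TPM in injured mutant mouse 2. In wild type 0 of these 10 regulators passed, with Il1b at 3.52, 3.69, 43.1 and 42.1 TPM in injured mice 1 to 4 beside 1.60 to 2.47 TPM in intact ones.

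Over all 8 lists, 59 of 65 genes were tested. In mutants 17 rose and 10 fell, and the median difference was 0.10 beside -0.08 over all tested genes. The rises were 28.8% of the 59 genes beside 13.1% of all tested genes, and the falls 16.9% beside 17.7%. The lists hold genes picked for their place in the pathway, and their counts are given as a description. In wild type 0 passed, with a median of 0.10 beside 0.01. Under the 27 alternatives, 0 of the 27 genes called in mutants changed direction. With M-named mutants alone 25 of them lost their call, and calls over all tested genes went from 7438 to 743. Of the 8 genes themselves, Nos2, Gch1 and Arg1 were past the threshold as higher and Ass1 as lower. The same contrast, injury in mutants, singled out Nos2, so this count is a description and not a test result.

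Some of these calls rested on single mice. Pcbd1 lost its call without injured mutant mouse 1 or 3 or without intact mutant mouse 1, 2 or 4, and its difference ran from -2.26 to -0.82 over the alternatives. Pcbd2 (-0.90 to -0.60) lost it without injured mouse 1 or 3 or intact mouse 4. Smox (1.24 to 2.00) lost it without injured mouse 2 or 3 or intact mouse 1, 2 or 4, and Prkg2 (0.47 to 1.05) without injured mouse 3 or 5 or intact mouse 1 or 2. Oaz2 (-0.53 to -0.19) lost it without injured mouse 1 or 2 or intact mouse 1 or 2. Ifngr2 (0.62 to 1.44) lost it without mouse 2 of either mutant group, Azin2 (0.34 to 0.63) without intact mouse 2 or 4 and Gucy1a2 (-1.17 to -0.52) without intact mouse 1. The other 19 kept theirs on leaving out any 1 mouse.

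**Figure D5:**
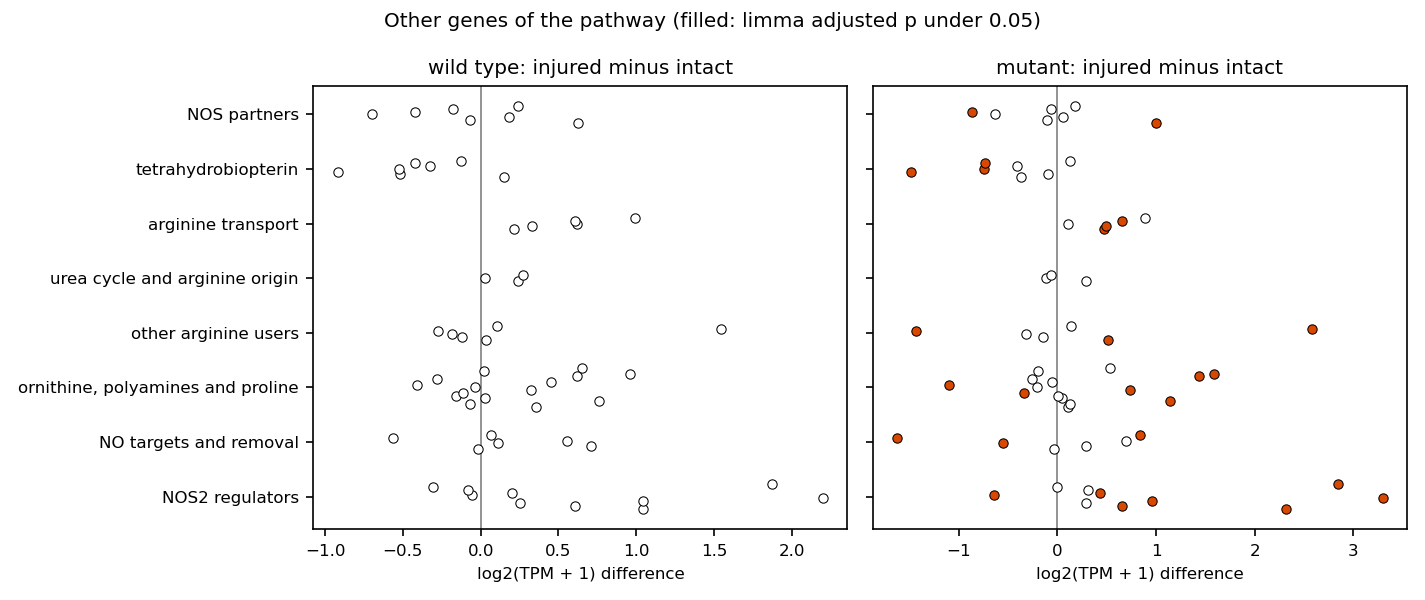
Injured minus intact difference of mean log2(TPM + 1) for 59 other genes of the pathway by list, in wild type (left) and mutants (right), with filled points for a limma adjusted p under 0.05. In mutants 17 genes are called higher and 10 lower, with Il1b (3.30) and Prkg1 (-1.63) at the ends, and 0 points are filled in wild type.

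Genotype was compared within each treatment. In intact discs, where 0.0165% of all genes passed, 0 of the 8 did, and the differences of mutant minus wild type ran from -0.27 for Nos2 to 0.46 for Ass1 (limma, adjusted p = 1 for both, and 915 genes at an unadjusted p under 0.05). Ass1 was at 64.5 TPM or above in all intact mutants and at 67.4 TPM or below in intact wild-type mice, so the groups overlapped.

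In injured discs the mutants had more Nos2 than the wild type on average, but wild-type mouse 3, at 466 TPM, lay within the mutants' 332 to 1516 TPM and mouse 4, at 303 TPM, just below it. The Nos2 difference was 3.20 ± 0.998 (SE, 5 against 4 mice) and did not pass (limma, adjusted p = 0.107). These injured mutants are the ones that singled out Nos2. Without injured wild-type mouse 3 the difference was 4.16 and passed (limma, adjusted p = 0.0178), and the number of all genes called went from 222 to 2272. Over all alternatives the adjusted p of Nos2 here ran from 0.0178 to 0.320. Arg1 differed by 1.85 ± 0.84 (limma, adjusted p = 0.234), Gch1 by 0.81 ± 0.35 (adjusted p = 0.211) and Nos3 by -0.55 ± 0.44 (adjusted p = 0.509). Of all genes 0.918% passed, and 0 of the 8 did (limma, 4912 genes at an unadjusted p under 0.05).

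Whether the injury difference itself differed between genotypes was tested as an interaction. It was 3.47 ± 1.51 for Nos2 (limma, adjusted p = 0.581), 2.05 ± 1.28 for Arg1 (adjusted p = 0.697) and 0.78 ± 0.53 for Gch1 (adjusted p = 0.730). The mutant injury difference that singled out Nos2 is part of this interaction, so its value for Nos2 is not free of that choice. None of the 8 passed, and of all genes tested 0% passed (limma, 1979 genes at an unadjusted p under 0.05). The larger differences in mutants are therefore not shown to differ from those in wild type. Of the 59 other pathway genes, 0 passed for genotype in intact discs, in injured discs or in the interaction. Without wild-type mouse 3, 13 of them passed in injured discs, where 9.5% of all genes did. Library names begin with D in all wild-type mice, so naming and genotype cannot be told apart.

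Across the 9 injured libraries, Gch1 went most closely with Nos2 among the other 7 genes (Pearson r = 0.89, Spearman rho = 0.87, log2(TPM + 1)), followed by Arg1 (r = 0.79, rho = 0.78). Nos3 was at r = 0.28, Slc7a2 at 0.23, Ass1 at 0.05, Asl at -0.12 and Arg2 at -0.14. These are descriptions over points that share genotype and depth within a library, and injured wild-type mice 1 and 2 sit at the low end for Nos2, Gch1 and Arg1 alike.

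Of 11869 genes compared, with means of 5 TPM or more, those most like Nos2 over these 9 libraries were Errfi1, a feedback inhibitor of the epidermal growth factor receptor (r = 0.99), Slc25a37, a mitochondrial iron importer (0.99), Plaur, the urokinase receptor (0.99), Fgd6 (0.99) and Bop1, a ribosome assembly factor (0.98). Most like Arg1 were Mmp12, the macrophage elastase (0.98), Srgn (0.98), Kcna3 (0.98), Adam8 itself (0.97) and Itgam, an integrin of myeloid cells (0.97). Gch1 was most like Gpr84 (0.97), Psd (0.97), Nfkb2 (0.97), Zc3h12a (0.96) and Nfkbia (0.96). Slc7a2 was most like Trdd1 (0.96) and Rnd1 (0.89), with mouse 3 of the injured mutants as the library that stands apart. Both genes were low, with means of 5.35 and 5.33 TPM, just above the minimum for this comparison.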

How the data were processed

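Bulk RNA sequencing of discs from 16 mice was used. Per the labels' protocols, total RNA was depleted of ribosomal RNA before library preparation, while the molecule field reads polyA RNA. The authors deposited TPM values, 1 column per mouse, and each column sums to 1000000. The submitters' processing notes name GRCm38 and bcl2fastq 2.20. The aligner, the counting and its use of strand are not given in the sources used here.

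The 8 genes and the lists of other pathway genes and markers were chosen with earlier results of these data known. Genes had to reach 1 TPM in 3 or more libraries, which left 24188, and their log2(TPM + 1) was fitted with limma 3.58.1 in R 4.3.3 (lmFit, eBayes with a trend), all 16 libraries in 1 fit with a mean per group. Adjusted p-values are Benjamini-Hochberg over all genes tested, with a threshold of 0.05, and SEs are limma's moderated ones. The fit was tested on simulated data. Groups and mouse numbers came from the titles. Same-numbered mice were not paired in the fit.

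The 8 genes were always named. Of each list, up to 3 called rises and 3 called falls by size were named in each injury comparison, and the 5 genes most like Nos2, Arg1, Gch1 and Slc7a2 by Pearson correlation. Other listed genes given with values (Nos1, Pts, Spr, Gchfr, Odc1, Oat, Pycr1, Ddah1, Ddah2, Ifngr2, Hif1a, Nfkb1 and Ifng) and the markers named were chosen after their values were seen. Some listed genes are not reported here by name. Reads implied by the TPM, from union exon lengths of GENCODE M21, put 94.1% to 95.0% of low values within 0.05 of a whole number, and 48970 of 49315 identifiers were found. They are approximate depths and no count test rests on them. Errors given are between mice, from a spread per gene that all groups share. Promoters came from RefSeq.

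Each mouse was left out in turn. The other alternatives were a replicate block, mutants of 1 library naming, sample weights, eBayes with no trend, quantile normalization, scaling by medians of ratios, a mean of 5 TPM as the filter or none at all, 0.1 as the pseudocount and a fit of only the groups compared. Python 3.11.15 drew the figures.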

Additional observations from a re-analysis of the deposited data

Results flagged for a closer look

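Slc7a2 in injured mutant mouse 3 stood at 554 TPM, far from the other 4 injured mutants at 149 to 185 TPM. The gap to the nearest of them was 0.833 of the range of the group on the log2(TPM + 1) scale. Among the 24 sets of values examined (the 8 genes in each group of 4 or 5 mice) this was the 1 sample that stood apart, and chance alone sets a sample apart in about 1 in 20 such sets. The same mouse had the highest Nos2 (1516 TPM) and Gch1 (23.4 TPM).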

How the results depend on the processing

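Under the 27 alternatives the Nos2 injury difference in mutants ran from 7.08 to 7.997, which is a description, since this comparison singled the gene out. With M-named mutants alone, 2 of the 8 genes (Ass1 and Nos2) and 2 pathway genes were called, and with A8-named mutants alone 16 pathway genes, against 4 and 27 in all mutants. These fits use fewer mice, and over all genes 743 and 3649 were called, against 7438. Counts of the 8 genes in mutants are a description here too. Leaving out each mouse gave 3 to 4 of the 8 genes and 21 to 29 pathway genes called in mutants, and 0 to 1 of each in wild type (Nos2 and Azin1, without injured mouse 1). Over all genes these fits called 22.2% to 33.3% in mutants. In wild type they called 0.00834% to 1.93%, the most without injured mouse 1. Between genotypes in injured discs, leaving out each mouse gave 0 to 1 of the 8 genes and 0 to 13 pathway genes. The most were called without injured wild-type mouse 3, where 9.5% of all genes were called. Between genotypes in injured discs, a filter at a mean of 5 TPM called 3 pathway genes, median-of-ratios scaling 1 and sample weights 5. Over all genes these settings called 1.7%, 0.661% and 4.42% in that order, against 0.918% in the fit reported. Nos2 was the 1 of 8 genes called under sample weights (3.62, limma adjusted p = 0.0497, over all alternatives 0.0178 to 0.320). The injured mutants compared there are the ones that singled out Nos2. The cause of these shifts was not tested.

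Values near 0 changed sign: Nos2 between genotypes in intact discs was 0.0074 with A8-named mutants alone and -0.575 to 0.0781 on leaving out a mouse, Asl for injury in wild type was -0.0317 to 0.180, and Nos3 between genotypes in injured discs was -0.872 to 0.0112.

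Over all genes, the number called ran from 2 to 463 for injury in wild type (28 in the fit reported), 743 to 8559 in mutants (7438), 0 to 8 for genotype in intact discs (4), 1 to 2272 in injured discs (222) and 0 to 15 for the interaction (0). No pairing by mouse number is given in the sources used here. Deviations of 21 same-numbered pairs correlated at -0.22 to 0.15 and those of 74 other pairs at -0.31 to 0.30. With so few mice in a group these values cannot settle whether any were paired. A replicate block on the mouse numbers called 3 of the 8 genes in mutants (Arg1, Gch1 and Nos2, as a description) and 25 pathway genes. Of all genes, 25.6% were called in mutants with that block. The block called 0 of either in the other comparisons. The filter at 5 TPM removed Nos3, and a fit of only the groups compared was not run for the interaction. Depth limits Nos3 most, at 3 to 11 implied reads in intact libraries. With 100 bases before the start, 2 of the 3 motif matches stayed, both in Ass1.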
